A study of Ambystoma mexicanum with 7 samples.

Results

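The regions described here are wide accessible sites that the authors listed in regenerating axolotl limb tissue, that they listed in neither kind of uninjured limb, and that lie close to a site that was listed in uninjured limb. They were selected on the deposited peak positions alone. A blastema peak was taken if it lay on a named chromosome arm, was 500 bases or wider, overlapped no peak of either limb list, and had such a peak at most 10000 bases away on the same sequence. This gave 1967 of the 168368 blastema peaks, or 1.17% (exact 95% interval 1.12 to 1.22), and together they covered 1362 kb. Below they are called flanking sites. Their width, their lack of a limb overlap and their distance to a limb peak are therefore descriptions and not findings.

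The axolotl, Ambystoma mexicanum, is a salamander that regrows its limbs. Accessibility was measured by ATAC-seq, in which the Tn5 transposase tags DNA that is not tightly packed, and a peak is a stretch with more tagged fragments than its surroundings. The 7 samples were wild type in every group: 2 of blastema with wound epidermis, 2 of systemically activated limb, and 3 of intact, homeostatic limb. The same protocol is described for all groups. Cells were dissociated enzymatically, live cells with 4C DNA content were sorted, and 10000 of them were transposed. Both limb groups are placed at 14 days post-amputation by the design text, and no source used here gives a day for blastema. The blastema was taken with wound epidermis and the limb samples came from whole limb tissue, and in each only the sorted 4C cells were assayed. A different mix of cell types and a different accessibility per cell thus cannot be told apart in any of these lists.

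A blastema is the mass of proliferating progenitor cells that forms under the wound epidermis at the stump and from which the new limb grows. Systemic activation is the return to the cell cycle of cells in body parts that were not injured. Distal regulatory elements often lie near other elements of the same locus, and several accessible stretches side by side are common at active genes. Whether the flanking sites are such elements was not tested, because the lists name no genes and no annotation of their build was used here.

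The deposit holds 1 peak list per group and 1 made from all samples. Without values per sample there was no replicate spread to set a difference against. No test between conditions was possible, and the intervals given are exact intervals over peaks that cover counting error only. The lists differed in depth. The height of a summit (its pileup) counts the tags stacked on it, called fragments here although the sources do not say whether reads or read pairs were stacked. The lowest background at a summit, in fragments per base, was 2.49 in blastema, 0.375 in systemically activated limb and 0.529 in intact limb. The blastema background was thus 6.65 times that of the systemically activated list and 4.72 times that of the intact list, and the blastema list held 168368 peaks, against 17326 and 25843 peaks. At the 5th percentile of backgrounds the values were 2.49 in blastema, 0.520 in systemically activated limb and 0.560 in intact limb. The gap in depth was smaller by this measure, mainly to the systemically activated list.

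Most wide blastema peaks without a limb counterpart lay over 10 kb from any limb site, but so did much more sequence. Of 43719 blastema peaks of 500 bases or more on the 28 arms, 24084, or 55.1%, had no limb overlap. Flanking sites made up 8.17% of these 24084 (7.82 to 8.52), and the other 22117 lay over 10 kb from any limb peak. This share does not allow for the amount of sequence. Sequence at 5 to 10 kb from a limb site came to 259 Mb, with 3.37 such peaks per Mb. At 50 to 100 kb it came to 1993 Mb, with 1.55 per Mb. Per Mb they were denser within 2 kb and at 5 to 10 kb than past 10 kb, but not at 2 to 5 kb. Of narrower blastema-only peaks, 7.35% (7.20 to 7.51) lay within the same distance. At the edges of the rule, a flanking site of exactly 500 bases on arm 10p had a −log10 q of 7.68, and another of 500 bases on 1q had 5.17. The blastema-only peaks of 499 bases on 2p and 2q, just too narrow, had 3.60 and 3.03. The last flanking sites inside the distance limit lay 9995 and 9993 bases from a limb peak, both on 3q, with a −log10 q of 4.14 and 8.30. The first ones outside it lay at 10003 bases on 7p and 10005 bases on 9q, with 13.2 and 5.00.

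The flanking sites did not lie at even distances from their limb neighbours. The distance between the edges ran from 1 to 9995 bases with a median of 3732, and 413 sites (21.0%) were within 500 bases. Because a ring close to a limb site covers less sequence than a distant one, the sites were also counted per Mb of sequence in each ring. Wide blastema-only peaks were densest beside limb sites, with 14.9 per Mb within 500 bases (13.5 to 16.5). They thinned to 10.1 per Mb at 500 to 1000 bases, 3.41 per Mb at 1 to 2 kb and 1.29 per Mb at 2 to 3 kb. The lowest density, 1.13 per Mb (0.861 to 1.45), was at 3 to 4 kb. Beyond 5 kb it was higher again, with 3.43 per Mb (2.95 to 3.97) at 5 to 6 kb and 3.74 per Mb at 7 to 8 kb. Outside the limit of the rule it declined slowly, from 2.43 per Mb at 10 to 20 kb to 1.48 per Mb at 75 to 100 kb. The density at 2 to 5 kb was 0.412 times that at 5 to 10 kb (0.354 to 0.478). These rings were chosen after the values were seen.

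**Figure D1:**
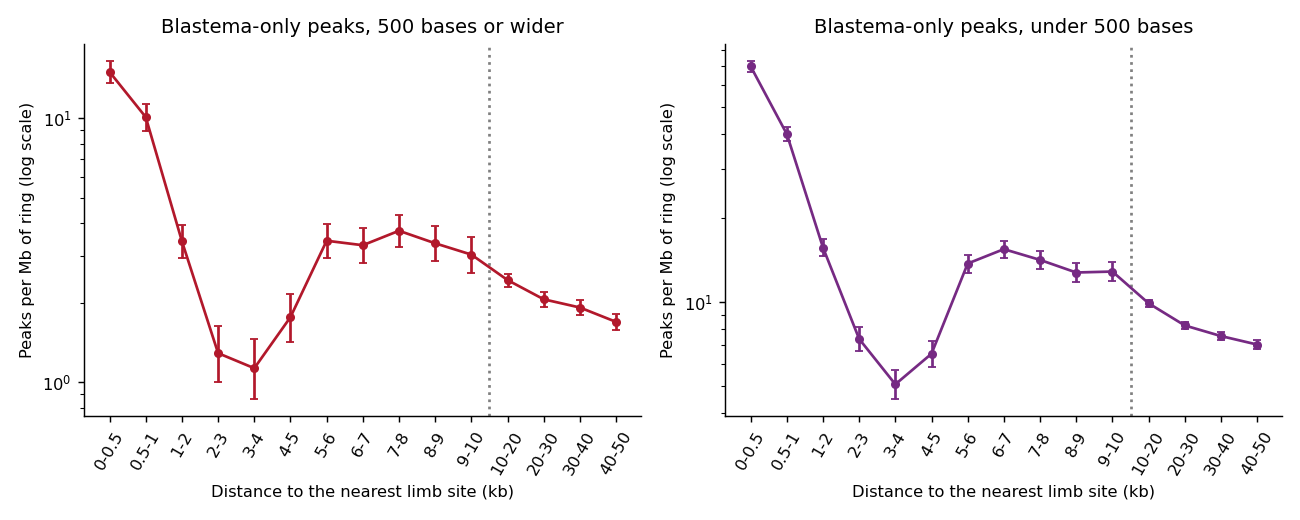
Blastema-only peaks per Mb of sequence (log scale) in rings of distance to the nearest limb site, in kb, for peaks of 500 bases or more and for narrower peaks; bars are exact 95% Poisson intervals and the dotted line is the limit of the rule. Both curves fall to a low point at 3 to 4 kb, with 1.13 and 5.08 peaks per Mb, and are higher again past 5 kb.

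The dip between 2 and 5 kb was shared by other blastema peaks. Narrower blastema-only peaks fell from 70.1 per Mb within 500 bases to 6.34 per Mb at 2 to 5 kb, and stood at 13.8 per Mb at 5 to 10 kb. The dip also appeared where no limb site was near. Around the 20900 wide blastema-only peaks over 20 kb from any limb site, narrower ones numbered 91.6 per Mb within 500 bases, 5.74 per Mb at 2 to 5 kb (5.32 to 6.18) and 14.7 per Mb at 5 to 10 kb (14.1 to 15.2). A dip at this distance was thus found around sites with and without a limb peak.

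The background that the peak caller used also varied with distance. MACS2 can take its background at a summit from windows around it, and which windows were used is not stated. Flanking sites had a median background of 10.3 fragments per base within 500 bases, 12.9 at 500 to 1000 bases and 13.0 at 1 to 2 kb. Those at 3 to 4 kb had a median background of 14.6 fragments per base and a median summit pileup of 45.5 fragments. Those at 4 to 5 kb had 9.38 and 33, and those at 6 to 7 kb had 6.75 and 30. Background and pileup were thus highest at 3 to 4 kb, where the density was lowest. They were also high at 500 to 2000 bases, and near the median of all flanking sites at 4 to 5 kb. Around limb sites of each kind looked at, the density at 2 to 5 kb was below that at 5 to 10 kb. Near limb sites whose own blastema pileup was 48 or more, the median over these sites, the density was 1.84 per Mb at 2 to 5 kb and 3.81 per Mb at 5 to 10 kb, with median backgrounds of 15.8 and 8.78. Near limb sites with a lower blastema pileup, it was 1.12 and 3.43 per Mb, with median backgrounds of 8.23 and 6.51. Near limb sites with no blastema peak it was 0.796 per Mb (0.455 to 1.29) and 1.70 per Mb (1.28 to 2.21), from 16 and 56 flanking sites, with backgrounds of 6.28 and 5.40. For this last kind the density at 10 to 20 kb was 0.966 per Mb (0.740 to 1.24). The value at 2 to 5 kb was thus not clearly below that farther out. All these backgrounds are medians over called peaks and do not give the background of sequence where no peak was called. The part of the background in the dip was not tested.

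**Figure D2:**
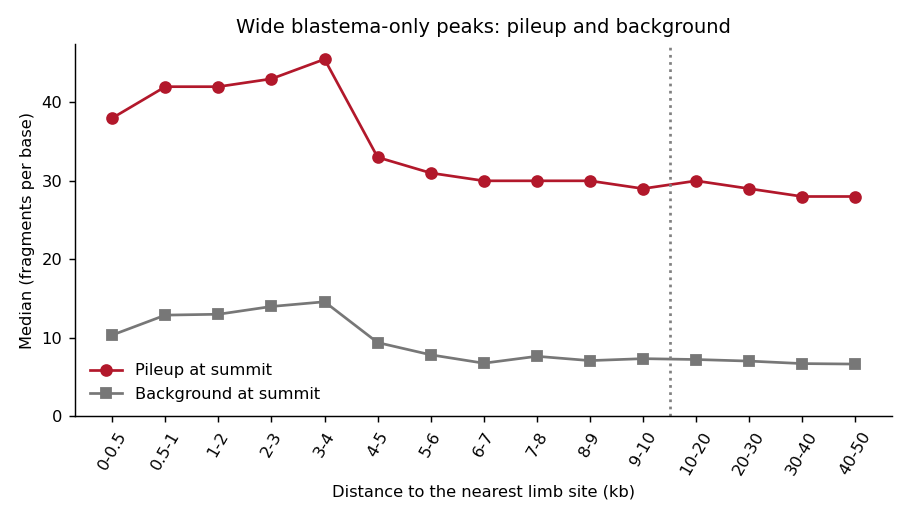
Median pileup and median background at the summit (fragments per base) of wide blastema-only peaks, by distance to the nearest limb site in kb; the dotted line is the limit of the rule. Both medians are highest at 3 to 4 kb (45.5 and 14.6) and lower from 4 kb on.

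Flanking sites stood on a higher background than wide blastema-only peaks farther away, and their summits were taller. Their median background was 9.36 fragments per base (quartiles 5.94 and 14.0), against 6.08 (4.26 and 8.38) for the farther peaks. Their median pileup was 35 fragments (26 and 45), against 27 (21 and 34). The fold, pileup over background with 1 added to each, was lower at flanking sites, with a median of 3.38 (2.86 and 4.07), against 3.91 (3.41 and 4.50). The −log10 q hardly differed, with medians of 6.43 and 6.35. Median widths were 629 and 644 bases. Wide blastema peaks with a limb overlap were higher in every one of these measures, with a median fold of 4.56, a −log10 q of 15.1, a pileup of 52, a background of 10.2 and a width of 891 bases. The contrast with farther peaks was small toward the limit of the rule. The 875 flanking sites at 5 to 10 kb had a median background of 7.36, a pileup of 30 and a fold of 3.66. Wide blastema-only peaks at 10 to 20 kb had 7.22, 30 and 3.74. The rule asks for a limb site nearby, and for 92.3% of flanking sites that limb site had a blastema peak. The part of this neighbour in background, pileup and fold was not tested. The differences from farther peaks are thus not read as a trait of the flanking sites.

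Within each range of width, pileup and fold each kept the order of classes seen over all widths. Pileup was lowest in farther peaks, fold was lowest in flanking sites, and both were highest in peaks with a limb overlap. Among sites of 500 to below 600 bases the median pileup was 32 in 817 flanking sites, against 24 in 8432 farther peaks and 36 in 2324 peaks with a limb overlap. Among sites of 800 bases or more it was 39 in 423 flanking sites, against 32 and 58. The median fold in that widest range was 3.54, against 4.08 and 4.64. Background and −log10 q did not keep the order that they had over all widths. Among sites of 500 to below 600 bases the median background was 8.86 in flanking sites, against 5.52 in farther peaks and 7.20 in peaks with a limb overlap. At 800 bases or more the median −log10 q was 7.91 in flanking sites, against 8.15 in farther peaks and 17.1 in peaks with a limb overlap. Fold, −log10 q, pileup and background all come from the blastema list, whose positions chose the flanking sites, so these values describe the sites and were not tested.

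**Figure D3:**
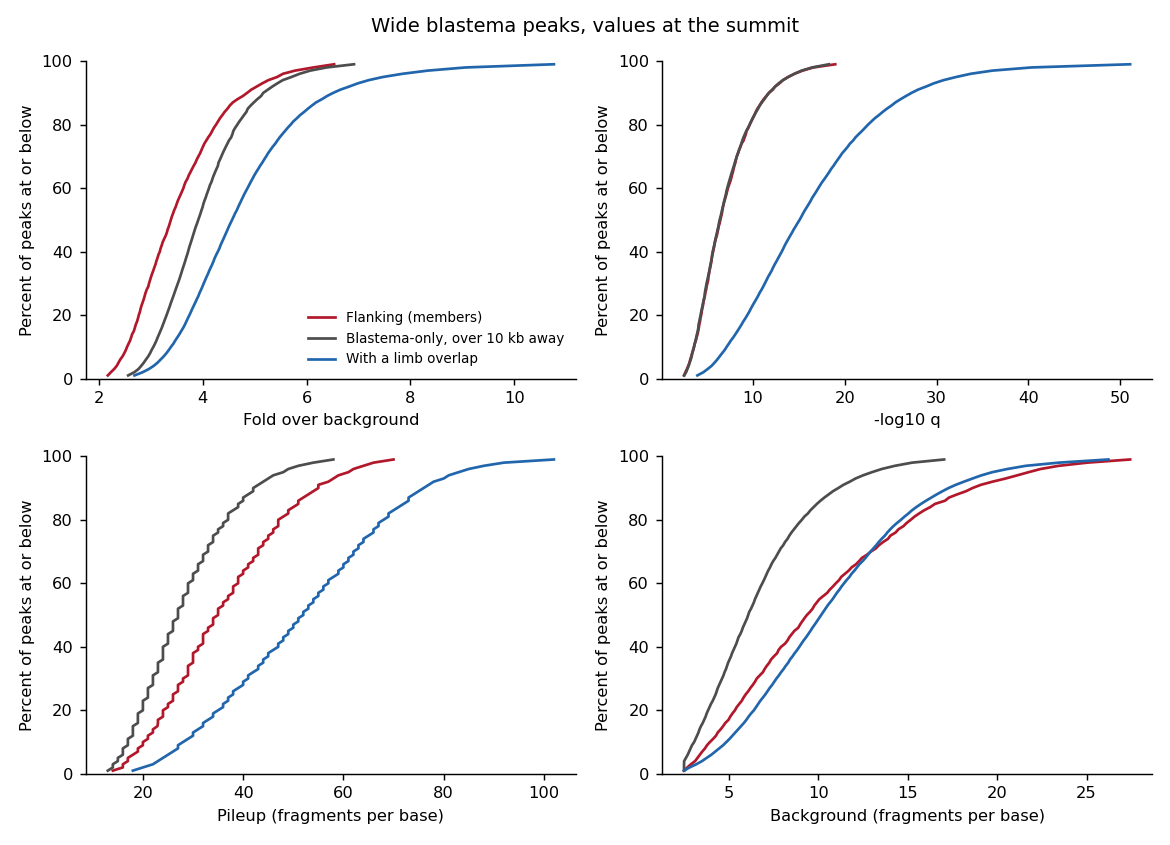
Percent of wide blastema peaks (1st to 99th percentile) at or below each fold, −log10 q, pileup and background, for flanking sites, for blastema-only peaks over 10 kb from a limb peak, and for peaks with a limb overlap. The −log10 q curves of the first classes nearly coincide (medians 6.43 and 6.35), while pileup and background are higher at flanking sites.

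The flanking sites differed widely among themselves, with a −log10 q from 1.97 to 30.8 and a pileup from 12 to 82 fragments. The site of highest −log10 q, 30.8, and of highest fold, 11.0, lay on arm 6q, segment 3, at bases 356931026 to 356931592. Long arms are cut into numbered segments in the files, and positions count within a segment. Its summit had 45 fragments on a background of 3.18, and it lay 4235 bases from a limb site that was in both limb lists. The next by −log10 q was on 5q, segment 2, at 428622693 to 428623349, with a −log10 q of 27.1 and 66 fragments, 1471 bases from an intact site. The third was on 7q, segment 2, at 305241632 to 305242216, with a −log10 q of 25.9 and 49 fragments, 823 bases from a systemically activated site. The fourth, on 1q, segment 2, at 424306104 to 424306915, had a −log10 q of 25.8 and 62 fragments. The fifth, on 2q, segment 2, at 261972805 to 261973400, had 25.4 and 46 fragments. These last sites also had a systemically activated site as their neighbour, 1184 and 9470 bases away, with 33 blastema fragments at each neighbour. By fold, the sites on 2q and 7q were again among the first 5, with a fold of 8.39 and 8.01. The others were on 5q, segment 0, at 362146140 to 362146677 (fold 8.99) and on 10p, segment 0, at 105970659 to 105971700 (fold 8.80).

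The median −log10 q of flanking sites rose with width. It was 5.59 at 500 to below 600 bases, 6.51 at 600 to below 800 bases and 7.91 from 800 bases on. The median pileup in those ranges was 32, 35 and 39 fragments, while the median fold was 3.33, 3.32 and 3.54. The −log10 q rose likewise in farther blastema-only peaks (5.44, 6.33 and 8.15) and in peaks with a limb overlap (9.87, 12.4 and 17.1). The widest flanking site, of 2635 bases, was on 5q, segment 2, at 311439372 to 311442006. It had 81 fragments on a background of 32.1, and so a fold of only 2.48. The next, of 2060 bases, on 5p, segment 2, at 157950357 to 157952416, had 64 fragments and a fold of 2.83. Those that followed, on 10p, 1q and 1p, were 1752, 1685 and 1659 bases wide, with folds of 2.95, 2.72 and 3.98. Over the 5 widest sites the −log10 q ran from 5.45 to 9.41, and 3 of them were close to or above the upper quartile of all flanking sites, 8.96. Those on 1q and 1p, with 5.69 and 5.45, were below the median of 6.43.

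The flanked limb sites were mostly accessible in blastema as well. The 1967 flanking sites had 1861 different limb sites as their nearest, where overlapping peaks of the limb lists counted as 1 site. Of these, 1763 had 1 flanking site, 90 had 2 and 8 had 3. A blastema peak overlapped 1721 of the 1861, or 92.5% (91.2 to 93.6), against 23789 of the 27083 limb sites without a flanking site, or 87.8% (87.4 to 88.2). Over all 28944 limb sites on the arms it was 88.1%. The difference was seen at limb sites of 1 list. Of flanked sites found only in systemically activated limb, 89.2% (85.0 to 92.6) had a blastema peak, against 76.4% (75.01 to 77.7) of those not flanked. Of flanked sites found only in intact limb it was 87.0% (84.5 to 89.2), against 80.3% (79.6 to 81.0). At sites of both limb lists it was 99.7% and 99.1%. The blastema peaks over flanked limb sites had a median pileup of 50 fragments and a median width of 744 bases, against 48 fragments and 827 bases over limb sites not flanked.

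Flanking sites seldom had the higher blastema summit of the pair. Where a blastema peak lay over the limb site, the flanking site had the higher summit in 360 of 1815 cases, or 19.8% (18.0 to 21.7). This share is in part set by the rule. It asks that the neighbour be in a limb list, which is shallower, and that the flanking site be in neither. Another blastema peak lay within 10 kb of 95.9% of flanking sites (94.96 to 96.8). Among the wide blastema-only peaks farther away this share was 32.1% (31.5 to 32.8). The median distance to the next blastema peak was 1575 bases, against 21897 bases. Both differences are largely set by the rule, which asks for a limb site nearby. The nearest limb site itself had a blastema peak for 1815 flanking sites (92.3%), and over all limb sites on the arms 88.1% had one. These differences are thus not read as a trait of the flanking sites. A further blastema peak lay between the flanking site and its limb site in 287 cases (14.6%). Limb sites within 10 kb on both sides were found for 70 flanking sites (3.56%). The flanking site lay at the higher coordinate in 980 cases, or 49.8% (47.6 to 52.1), so neither side prevailed.

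The lists that held the limb neighbours were close to those of limb sites as a whole. Of the flanked sites, 15.0% (13.4 to 16.7) were in the systemically activated list only, 44.7% (42.4 to 47.0) in the intact list only, and 40.4% (38.1 to 42.6) in both. Over all limb sites on the arms these shares were 14.0%, 43.2% and 42.8%. The nearest limb peak was an intact one for 73.2% of flanking sites (71.1 to 75.1), counting 10 that were equally near to both lists. Intact peaks made up 59.9% of limb peaks on the arms. That share counts peaks, so a site of both lists enters in each, and the shares are not like measures. A systemically activated peak lay within 10 kb of 1134 flanking sites, an intact peak within 10 kb of 1720, and both within 10 kb of 887. Of flanking sites within 500 bases, 32.7% had a neighbour in both limb lists. The share was 44.7% at 500 to 1000 bases, 41.3% at 1 to 2 kb, 40.5% at 2 to 5 kb and 40.8% at 5 to 10 kb, with no trend past the first range.

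Some flanking sites were parts of 1 longer region in the deeper all-sample list. An all-sample peak overlapped 1965 of 1967 flanking sites, or 99.9% (99.6 to 100), as it did 22105 of the 22117 wide blastema-only peaks farther away. That list holds the same blastema reads, so this overlap is not independent of the rule. In 301 cases, or 15.3% (13.7 to 17.0), 1 all-sample peak covered both the flanking site and its nearest limb site. These were 243 of the 413 flanking sites within 500 bases (58.8%), 54 of the 273 at 500 to 1000 bases (19.8%), 4 at 1 to 2 kb and none farther out. Nearly all of the 301 thus came from the nearest kb, where the density was highest.

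Of the 5 closest pairs, 2 had no blastema peak over the limb site. On 13q the flanking site at 371414971 to 371415567 was 1 base apart from an intact peak that no blastema peak overlapped, and had 25 fragments. On 2q, segment 1, the one at 312239185 to 312240286 lay 9 bases from an intact peak, also without a blastema peak over it, and had 30 fragments. The other sites among the 5 nearest were on 11q at 4 bases, on 5p at 5 bases and on 8q at 11 bases. Each had a blastema peak over its limb neighbour as well. On 11q the flanking site had 21 fragments and the blastema peak over its neighbour 19. On 5p these were 24 and 25, and on 8q 16 and 29. Of the flanking sites within 500 bases, 87.2% (83.6 to 90.2) had a blastema peak over the limb neighbour, against 93.6% (91.8 to 95.1) of those at 5 to 10 kb.

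Summits showed at most a slight lean toward the limb neighbour. The summit was nearer to the edge that faced the limb site in 108 of 184 flanking sites at 1 to 2 kb, or 58.7% (51.2 to 65.9). The share was 52.5% (47.6 to 57.4) within 500 bases, 56.0% (49.9 to 62.0) at 500 to 1000 bases, 56.3% (49.5 to 62.9) at 2 to 5 kb and 51.2% (47.8 to 54.6) at 5 to 10 kb. Only the interval at 1 to 2 kb lay above 50%, among 5 ranges looked at.

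Some flanking sites lay close to one another. Another flanking site lay within 10 kb of 189, or 9.61% (8.34 to 11.0). No like share is given for other classes of peaks, so whether this is many or few was not tested. No limb site had more than 3 flanking sites within 10 kb, and 8 limb sites had 3. The first of these by sequence name was an intact site on 11q, segment 2, at 117538329 to 117538536, with no blastema peak of its own. Its flanking sites, 568, 918 and 581 bases wide, lay 7407, 6308 and 1636 bases away, with 28, 20 and 24 fragments. The second was an intact site on the same segment at 280856358 to 280856708, with flanking sites of 47, 29 and 38 fragments at 1277, 7014 and 9262 bases. The third was an intact site on 13q at 444526467 to 444526927, with flanking sites of 54, 54 and 50 fragments at 9865, 1978 and 124 bases. In the last pair of loci a blastema peak also lay over the limb site, with 53 and 60 fragments.

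The number of flanking sites that a limb list would hold at its own depth, if accessibility were equal, was calculated. Each blastema pileup and its background were scaled to the depth of a limb list by the ratio of the lowest backgrounds. The Poisson chance of passing the lowest −log10 p of that list was then summed. At equal accessibility, 283 of the 1967 flanking sites (14.4%) would be expected in the systemically activated list, 513 (26.1%) in the intact list and 693 (35.2%) in at least 1 of them. For the farther wide blastema-only peaks these shares were 15.1%, 27.0% and 36.5%. With the 5th percentile of backgrounds in place of the lowest, 831 of the 1967 flanking sites would be expected in at least 1 limb list. Over all 43719 wide blastema peaks the same sum gave 41.4% for the intact list, where 41.0% had an intact overlap. For the systemically activated list it gave 26.5%, where 30.4% had an overlap. For at least 1 limb list it gave 51.9%, or 22692 peaks, where 19635 had a limb overlap, so the combined sum was above the overlaps. The sum is for summits that pass a threshold and the overlap is for any shared base, so these are not like measures. For wide peaks with a limb overlap, a class taken by that overlap, the sum gave 59.3% for the intact list, where 91.2% had an intact overlap. Only 167 flanking sites (8.49%) had a chance above 50% of an intact call, and 13 had a chance above 90% of a call in either list. The share depends on how strong the chosen sites are. With the blastema list limited to the length of the intact list by −log10 q, 275 of 436 flanking sites (63.0%) would be expected in at least 1 limb list, and none was there by the rule. The part of depth in the absence of limb calls was not tested. The 6q site named above had a chance of 80.5% for the systemically activated list and 91.3% for the intact list. The sites on 5q, 7q, 1q and 2q that follow it by −log10 q had chances of 65.9% to 74.4% and of 84.3% to 89.2%. The calculation takes summits that were chosen for their height and assumes an equal share of fragments in peaks in all groups, and the sums of the 2 limb lists were combined as if independent.

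The all-sample list holds the blastema reads and those of the limb samples. Where its summit lay within 5 bases of the blastema summit, the all-sample pileup minus the blastema pileup counts fragments that the blastema list does not hold. This was possible for 621 flanking sites (31.6%). Their median pileup was 50 fragments in the all-sample list and 36 in the blastema list. The difference had a median of 13 (quartiles 10 and 18) and ran from 1 to 37. A positive difference is nearly built in, since the all-sample list adds samples to the blastema ones. It made up a median of 26.7% of the all-sample pileup (22.1 and 31.7). At 7670 wide blastema-only peaks farther away that share was 25.6% (20.4 and 31.0), and at 7639 wide blastema peaks with a limb overlap it was 28.0% (24.1 and 32.1). The median share at flanking sites thus lay between those of the farther peaks and of the peaks with a limb overlap. What it says of the absence of limb calls was not tested. The limb lists made up 26.6% of the summed backgrounds of the group lists.

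Limits apply to this share. The group backgrounds sum to 3.40 fragments per base and the all-sample background was 4.22, so 40.9% of it was not in the blastema background. The median shares of all classes lay below this value, though near the 26.6% from the summed group backgrounds. Which of these references applies was not tested. At the 109 all-sample peaks where all group lists had a summit within 5 bases, the group pileups summed to a median of 1.18 times the all-sample pileup. The lists thus did not add up, and the backgrounds and the pileups missed in opposite directions. Both gaps were larger than the differences between the median shares of the classes. The share is therefore a rough comparison between classes of sites rather than a count of limb fragments. The effect of choosing summits by their height in blastema was not tested.

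**Figure D4:**
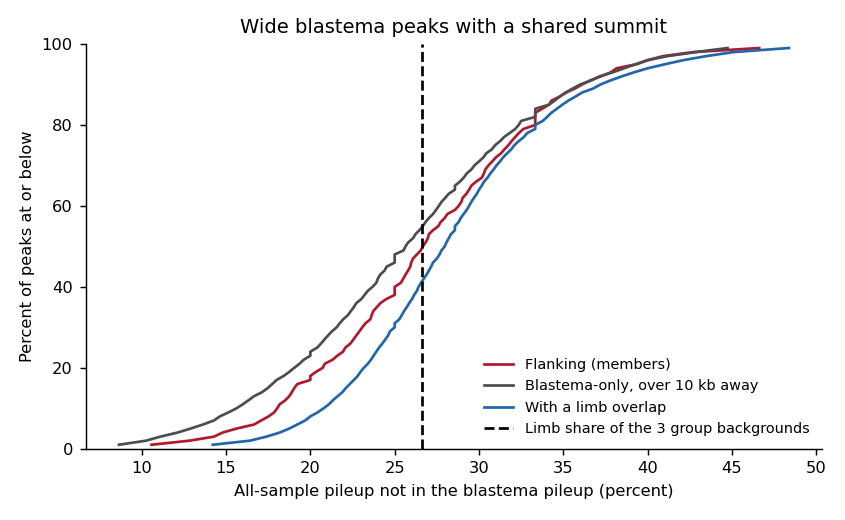
Percent of wide blastema peaks with a shared summit (1st to 99th percentile) at or below each share of the all-sample pileup that the blastema pileup does not hold, for flanking sites, farther blastema-only peaks and peaks with a limb overlap; the dashed line is the limb share of the group backgrounds, 26.6%. The medians are 26.7%, 25.6% and 28.0%. All lie below 40.9%, the share of the all-sample background that was not in the blastema background (not drawn).

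Flanking sites were found on all 28 arms, from 22 on 12p to 177 on 3q. Their share of the wide blastema-only peaks of an arm ran from 6.18% on 5p (4.64 to 8.05) to 13.1% on 13p (9.88 to 17.0). Among the 28 intervals looked at, with no allowance for their number, those of 4 arms did not hold the share of all arms, 8.17%. These were 13p, 13q with 10.7% (8.67 to 13.1), 5p, and 6q with 6.27% (4.90 to 7.88). More limb sites per Mb raise this share by construction, since the rule takes peaks by their distance to a limb peak, so the relation is a description only. There were 1.77 limb sites per Mb on 13p and 1.98 on 13q, against 0.684 on 5p and 0.810 on 6q. Over the 28 arms, which differ in length and share the same libraries, Pearson's r between limb sites per Mb and the share was 0.742 and Spearman's rho 0.656. Without the 2 arms farthest from the median density r was 0.615. Some arms lay off this relation, such as 11p with 1.40 limb sites per Mb and a share of 6.67% (4.36 to 9.68), and 12q with 1.13 and 6.37% (4.78 to 8.29). The intervals of both held the share of all arms. Per 100 limb sites there were 11.4 flanking sites on 13p and 8.88 on 13q, against 5.82 on 5p and 5.17 on 6q.

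**Figure D5:**
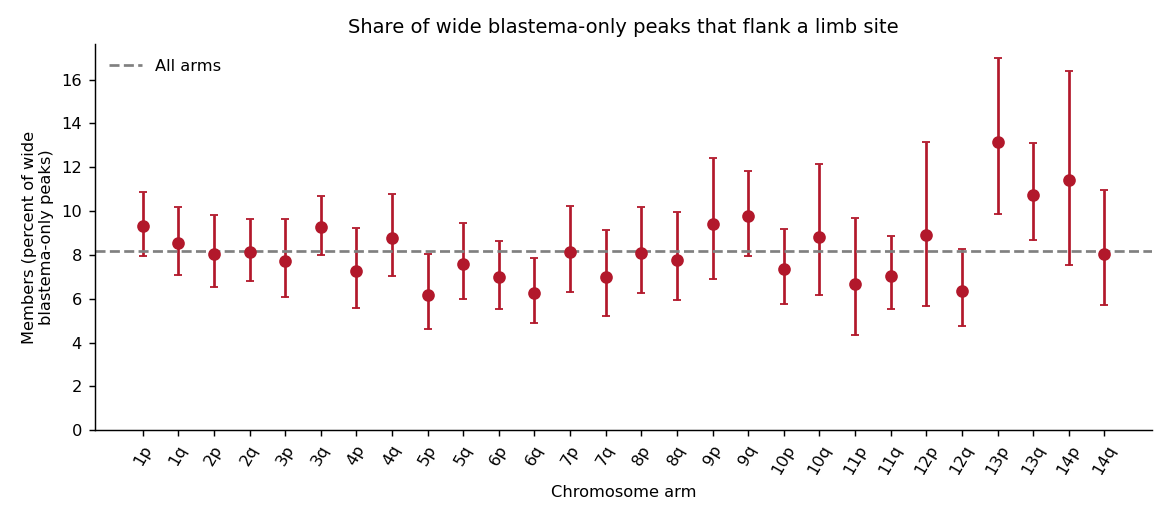
Flanking sites as a percent of the wide blastema-only peaks of each chromosome arm, with exact 95% intervals; the dashed line is the share over all arms, 8.17%. Arm 13p is highest at 13.1% and 5p lowest at 6.18%.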

How the data were processed

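ATAC-seq peak lists of 7 axolotl samples were used: 2 blastema, 2 systemically activated and 3 intact, grouped by their titles. The submitters' processing notes name Bowtie2 2.3.2, an aligner, and MACS2, a peak caller. Not given in the sources used here: genome build, MACS2 version and settings, any Tn5 shift, and how samples were combined. The fold (ratio of pileup to background at the summit), the −log10 p-value and the −log10 q-value of each peak were deposited by the authors, with q adjusted within 1 list. Fold and −log10 q were compared within a list only. Pileups and backgrounds solved from fold and p were also set across lists, for depth and for the all-sample pileup. The samples of a group may not be from separate animals, and no sample has its own values.

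Peaks overlapped when they shared at least 1 base, and distances are bases between edges. Overlapping limb peaks were merged into sites. Each base of a ring was given to its nearest site. Whole pileups and backgrounds were solved from fold and p with the MACS2 formulas, within 0.001 in −log10 p, for 99.8% of systemically activated, 99.9% of intact and all blastema peaks. Distance, overlap and pileup code was checked on made-up peaks. Python 3.11.15, scipy 1.17.1 and pandas 2.3.3 were used. Intervals are exact (Clopper-Pearson or Poisson) at 95%. The regions named were the 5 first by −log10 q, by fold, by width and by nearness, the 3 limb sites with the most flanking sites, and the pairs at each limit, with ties broken by sequence name and start. The regions and the alternatives were chosen with earlier results of these data known. No genome of the files' build was used, so sequences, genes and motifs were not analysed here. Positions are 1-based.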

Additional observations from a re-analysis of the deposited data

How the results depend on the processing

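Of the values recomputed, 54 stayed within the interval of the main value or within 1.5 times a count, and 35 moved further. The number of flanking sites was 1092 and 3184 at distance limits of 5000 and 20000 bases, 5633 and 145 at width limits of 300 and 1000 bases, and 436 with the blastema list at the length of the intact list. Their expected limb calls in those settings were 382, 1132, 1566, 68.5 and 275. The last setting keeps only the blastema peaks of highest −log10 q, which raises the expected share by construction. In that setting most flanking sites, 63.0%, would be expected in a limb list, against 35.2% by the rule as used. Their share of wide blastema-only peaks was 4.53% and 13.2% at those distances, 7.20% at 1000 bases, 8.60% with a summit rule for overlap, 4.64% with limb peaks of −log10 q of at least 5, 4.95% with the systemically activated list alone and 7.20% with the intact list alone. The share of flanked limb sites with a blastema peak was 85.7% with blastema peaks of −log10 q of at least 5, 98.6% with such limb peaks, 96.7% with the systemically activated list alone and 66.2% with the blastema list at intact length. The same share over limb sites not flanked is not given there, so whether the difference between them held was not tested. The median −log10 q was 7.79, 7.26, 7.27 and 11.4 in those settings, and 4.94 and 9.07 at widths of 300 and 1000 bases. The intact list held the nearest limb peak for 71.0% at 1000 bases. The all-sample overlap was 99.3% at 300 bases and 100% in 5 other settings. The share nearest to an intact peak has no meaning with 1 limb list alone and was not run there.

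The ratio of densities at 2 to 5 kb and 5 to 10 kb, an alternative set added after seeing the data, ran from 0.217 at 1000 bases to 0.454 at 300 bases. With summits within 0 or 20 bases, also added, the share outside the blastema pileup was 26.3% and 26.9% at flanking sites, against 24.6% and 26.1% at farther peaks. No paired analysis was possible because the lists pool the samples of a group and no result comes from a test. For the same reason no replicate could be left out. Absence from the limb lists is limited by depth, by the pooled samples and by peak-calling settings that are not known.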
